A study of Solanum lycopersicum and Solanum pimpinellifolium with 30 samples.

Results

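This account covers the transcripts whose signal in ripe tomato fruit was low in a single landrace. They are probe sets, the groups of short probes that each read 1 transcript on the Affymetrix tomato array. They were selected on the measured landrace means themselves, after quantile normalisation of the log2 signals over the 30 arrays: the lowest of the 9 landrace means had to lie at least 2 log2 units below the second lowest, and the second lowest had to be at least 3. Of 10034 probe sets, 10 met both conditions (0.0997%). Of these, 7 were low in landrace 572, 2 in landrace 3815 and 1 in landrace 557. The levels in the low landrace, and the distance to the other 8, are therefore descriptions of how the probe sets were chosen and carry no test. The level in LA1589, and further probe sets of the same sequence cluster, were not used in the choice.

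The samples were 3 biological replicates of each of 10 cultivars. The wild accession LA1589 belongs to Solanum pimpinellifolium, a tomato species with small fruit. The other 9 are local Andean varieties of Solanum lycopersicum, with the accession numbers 572, 3815, 557, 3806, 3836, 3842, 549, 560 and 571. All were field-grown in the same trial and the labels name no treatment. Each accession had 18 plants in plots of 6, and red fruit was stripped of skin, locule and seeds so that pericarp was left. How many plants or fruits entered 1 RNA sample is not stated, so the replicates measure the spread between these samples.

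Landraces are varieties kept by local growers, and during ripening the pericarp turns on a broad programme of genes for softening, pigment and stress proteins. An array signal depends on how much of a transcript is present and on how well it pairs with the probes, and these cannot be told apart in the values used here. In pericarp taken as a whole, fewer cells of a type and less RNA per cell cannot be told apart either. Only 2 of the 10 probe sets carry a gene name in the platform annotation, vis1 and AN35. The gene vis1 encodes a small heat shock protein, a chaperone that holds partly unfolded proteins in solution. In tomato, vis1 is known as a gene that is switched on as the fruit ripens and that affects the viscosity of the juice. AN35 is a protein-coding gene. The other 8 are named by their probe set identifiers.

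In the assembly SLM_r2.1 of the cultivated tomato, vis1 lies on chromosome 5 from 8420977 to 8423572 and AN35 on chromosome 4 from 55056257 to 55059957. Both are annotated as protein coding. Positions of the 8 unnamed probe sets were not used here. All 10 probe sets belong to the class whose identifier ends in plain "_at", which makes up 97.4% of the 10034; the other endings mark probe sets that can read several transcripts.

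The arrays of 572 and 557 differed from most others in overall measures. The share of probe sets above the array background (the percentile 95 of 63 probe sets for foreign reporter sequences) averaged 59.1% in LA1589, 58.2% in 572, 71.0% in 3815 and 48.5% in 557. It ran from 60.0% to 72.0% in the 6 landraces in which none of the 10 probe sets was low. The mean deposited signal of 18 spiked control probe sets was 9.62 in LA1589, 10.23 in 572, 9.19 in 3815 and 10.33 in 557. It lay between 8.24 and 9.65 in the other 6 landraces. The part of these measures in the results was not tested. Of 7 probe sets for ripe fruit markers, EXP1, E8, PG2, RIN and TDR4 had cultivar means from 5.68 to 10.58, while TBG4 and PGcat were dim (0.17 to 2.85). TAS14, listed here as a seed marker, and LE16 and TSW12, listed as epidermis markers, were at 1.70 or less in each cultivar. Whether these genes would show seed or skin left in such fruit was not tested. The green-tissue gene PSBR was at 7.68 to 9.99 and PSBO at 3.62 to 7.33, lowest in 3815 for both, while CAB4 and CAB6A were at 3.89 or less.

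Most probe sets showed no such gap. Among the 2906 probe sets whose second lowest landrace mean was at least 3, the gap below it had a median of 0.20 and a 99th percentile of 1.57 (log2). A gap of at least 1 was present in 119 of them, 34 with 572 as the lowest landrace, 31 with 557, 26 with 560, 19 with 3815, and 3 or fewer with each of the other 5. The opposite pattern, a highest landrace mean of at least 3 that lay at least 2 above the second highest, was found in 12 probe sets, 4 each in 572 and 560, 2 in 3815 and 1 each in 3806 and 3836. So 572 held the most probe sets low in 1 landrace, and as many as 560 of those high in 1 landrace.

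**Figure D1:**
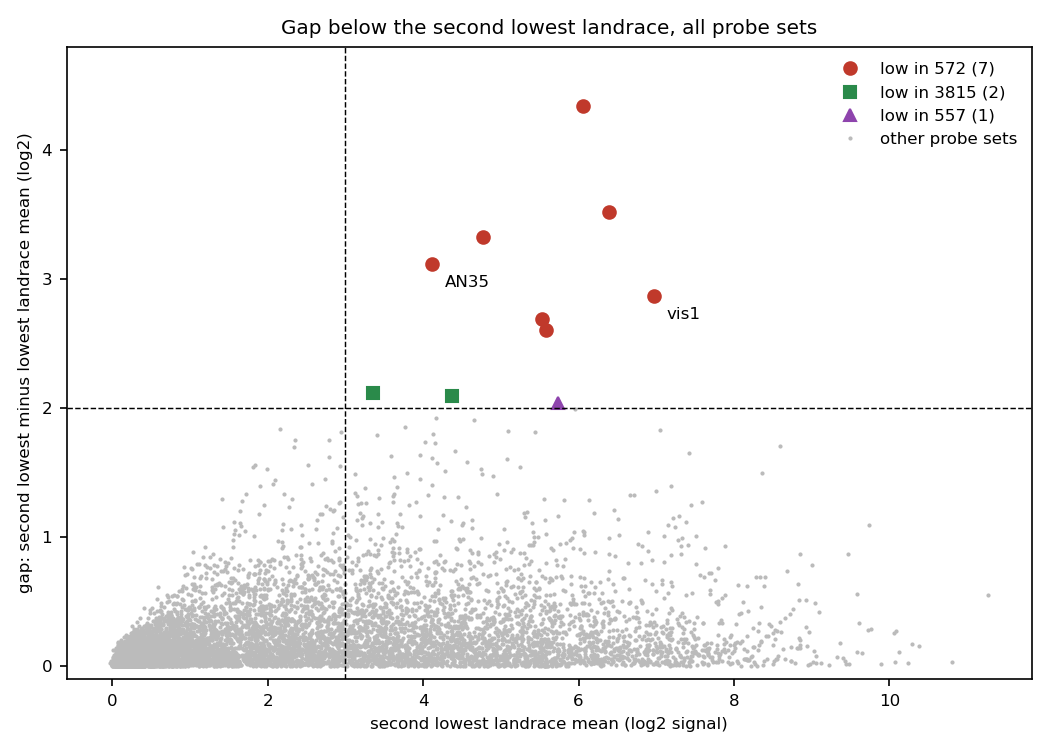
Gap between the second lowest and the lowest landrace mean (vertical axis, log2) against the second lowest landrace mean (horizontal axis, log2 signal) for 10034 probe sets. Dashed lines mark the thresholds of 2 and 3. The 7 probe sets low in 572 reach gaps from 2.61 to 4.34, while the 2 low in 3815 and the 1 low in 557 lie just above the line.

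The probe sets nearest to the threshold were Les.2026.1.S1_at (gap 2.04, low in 557) and Les.608.1.S1_at (gap 2.1, low in 3815) on the inside. On the outside they were Les.2930.1.A1_at (gap 1.99) and LesAffx.52290.1.S1_at (gap 1.92), both with 572 as the lowest landrace.

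The transcript with the widest gap was read by Les.4809.1.S1_at. Its signal was 2.71, 1.47 and 0.98 in the 3 arrays of 572. LA1589 was also low, with 0.22, 0.47 and 1.41, against a lowest value of 6.02, a median of 6.65 and a highest value of 7.26 in the 24 arrays of the other 8 landraces. The other 8 were close together, with means from 6.06 in 560 to 6.95 in 3836, so that the gap of 4.34 was wider than the whole range of the rest. On the log2 scale 572 lay 4.89 below the mean of the other 8, which is 29.6-fold lower. No array of LA1589 or of 572 came near any array of the other 8 landraces.

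Les.2062.1.S1_at was likewise low in both cultivars. It gave 0.73, 1.18 and 2.43 in 572. In LA1589 it gave 0.70, 0.14 and 0.43, against a lowest value of 3.67, a median of 5.40 and a highest value of 5.91 in the other 24 landrace arrays. With 2 of its 3 arrays at background, 572 was at least 13.7-fold below the mean of the other 8. In LA1589 all 3 arrays were at background. These 2 probe sets were the members in which LA1589 lay below even the low landrace.

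LesAffx.6688.1.S1_at separated 572 from everything else. The arrays of 572 gave 2.79, 2.98 and 2.81, an SD of 0.11. LA1589 gave 6.92, 7.34 and 7.09, against a lowest value of 6.19, a median of 7.14 and a highest value of 8.11 in the other 24 landrace arrays. Its signal in 572 was above background on all 3 arrays and 20.6-fold below the mean of the other 8. Of the 7 members low in 572 it was the one for which the LA1589 mean lay within the means of the other 8 (6.38 to 7.68).

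AN35 was dim in 572, with 1.0, 0.69 and 1.31, and 1 of these arrays was at background. The 3 arrays of LA1589 gave 3.26, 3.13 and 3.18. The other 24 landrace arrays had a lowest value of 3.29, a median of 4.67 and a highest value of 5.77. The landrace means of the other 8 ran from 4.12 in 3836 to 5.45 in 571, so the gap was 3.12 and 572 lay 13.6-fold below their mean. The arrays of LA1589 lay below all 24 of those arrays and above all 3 arrays of 572.

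The small heat shock gene vis1 was low in 572 and in LA1589. It gave 3.53, 2.82 and 5.98 in 572. LA1589 gave 4.32, 4.15 and 4.46, against a lowest value of 6.51, a median of 8.26 and a highest value of 10.20 in the other 24 landrace arrays. Replicate 3 of 572 lay closer to the lowest of those arrays than to the other 2 arrays of 572, and without it the gap was 3.80 in place of 2.87, while without replicate 2 of 572 it was 2.22. The values of LA1589 lay within the range of the 572 arrays and below every array of the other 8 landraces.

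Les.2930.2.S1_at gave 3.47, 1.52 and 3.54 in 572. LA1589 gave 4.28, 4.22 and 4.83, against a lowest value of 5.25, a median of 6.21 and a highest value of 7.09 in the other 24 landrace arrays. Its gap of 2.69 was 2.02 without replicate 2 of 572. The LA1589 values lay between the 2 sets of landrace arrays and overlapped neither.

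The last member low in 572, Les.5044.1.S1_at, varied most within that landrace. Its values in 572 were 2.12, 5.22 and 1.56. LA1589 gave 5.49, 4.49 and 5.44, against a lowest value of 5.11, a median of 6.70 and a highest value of 8.76 in the other 24 landrace arrays. Replicate 2 of 572 thus lay inside the range of the other landraces. Without it the gap of 2.61 became 3.73, and without replicate 3 it was 1.9, under the threshold.

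The 2 members low in 3815 had narrower gaps. Les.5255.1.S1_at gave 1.04, 1.52 and 1.16 in 3815. LA1589 gave 3.45, 3.75 and 3.94, against a lowest value of 2.86, a median of 4.18 and a highest value of 5.47 in the 24 arrays of the other 8, and 3815 was 7.45-fold below their mean. The LA1589 arrays lay within the range of the other 8. Here the 3 arrays of the low landrace were close together and apart from all others.

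For Les.608.1.S1_at the arrays of 3815 did not stay apart. They gave 4.39, 1.53 and 0.89. LA1589 was scattered too, with 5.52, 2.79 and 4.14, against a lowest value of 2.57, a median of 5.80 and a highest value of 7.48 in the other 24 landrace arrays. Replicate 1 of 3815 lay above 1 array each of 3806 and 3836. The gap of 2.1 was 3.16 without that array, 1.41 without replicate 3 of 3815 and 1.49 without replicate 1 of 3806.

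Les.2026.1.S1_at, the member low in 557, gave 3.67, 3.97 and 3.44 there. LA1589 gave 5.14, 5.97 and 4.98. The other 24 landrace arrays had a lowest value of 5.42, a median of 6.75 and a highest value of 8.09, with the highest mean in 3806 (7.83). Of the 3 arrays of LA1589, 2 lay between the arrays of 557 and those of the other 8. With the signals scaled by the array median in place of quantiles the gap was 2.33, and on the deposited values 2.47. It was 1.8 without replicate 1 of 560. This probe set did not meet the rule without that array, without replicate 3 of 557, or with landrace medians in place of means.

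Of the 10 members, 8 had all 3 arrays of the low landrace below all 24 arrays of the other 8. Among all 2906 probe sets with a second lowest landrace mean of at least 3, this was so in 10.1%. Since the members were selected on the gap between these means, nothing is read from the count. The exceptions were Les.5044.1.S1_at and Les.608.1.S1_at. The second lowest landrace was 560 for 6 members, 557 for 2, 3836 for AN35 and 3806 for Les.608.1.S1_at. The highest landrace was 549 or 3836 or 3806 in 7 of the 10, with 3842, 571 and 557 for 1 member each.

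**Figure D2:**
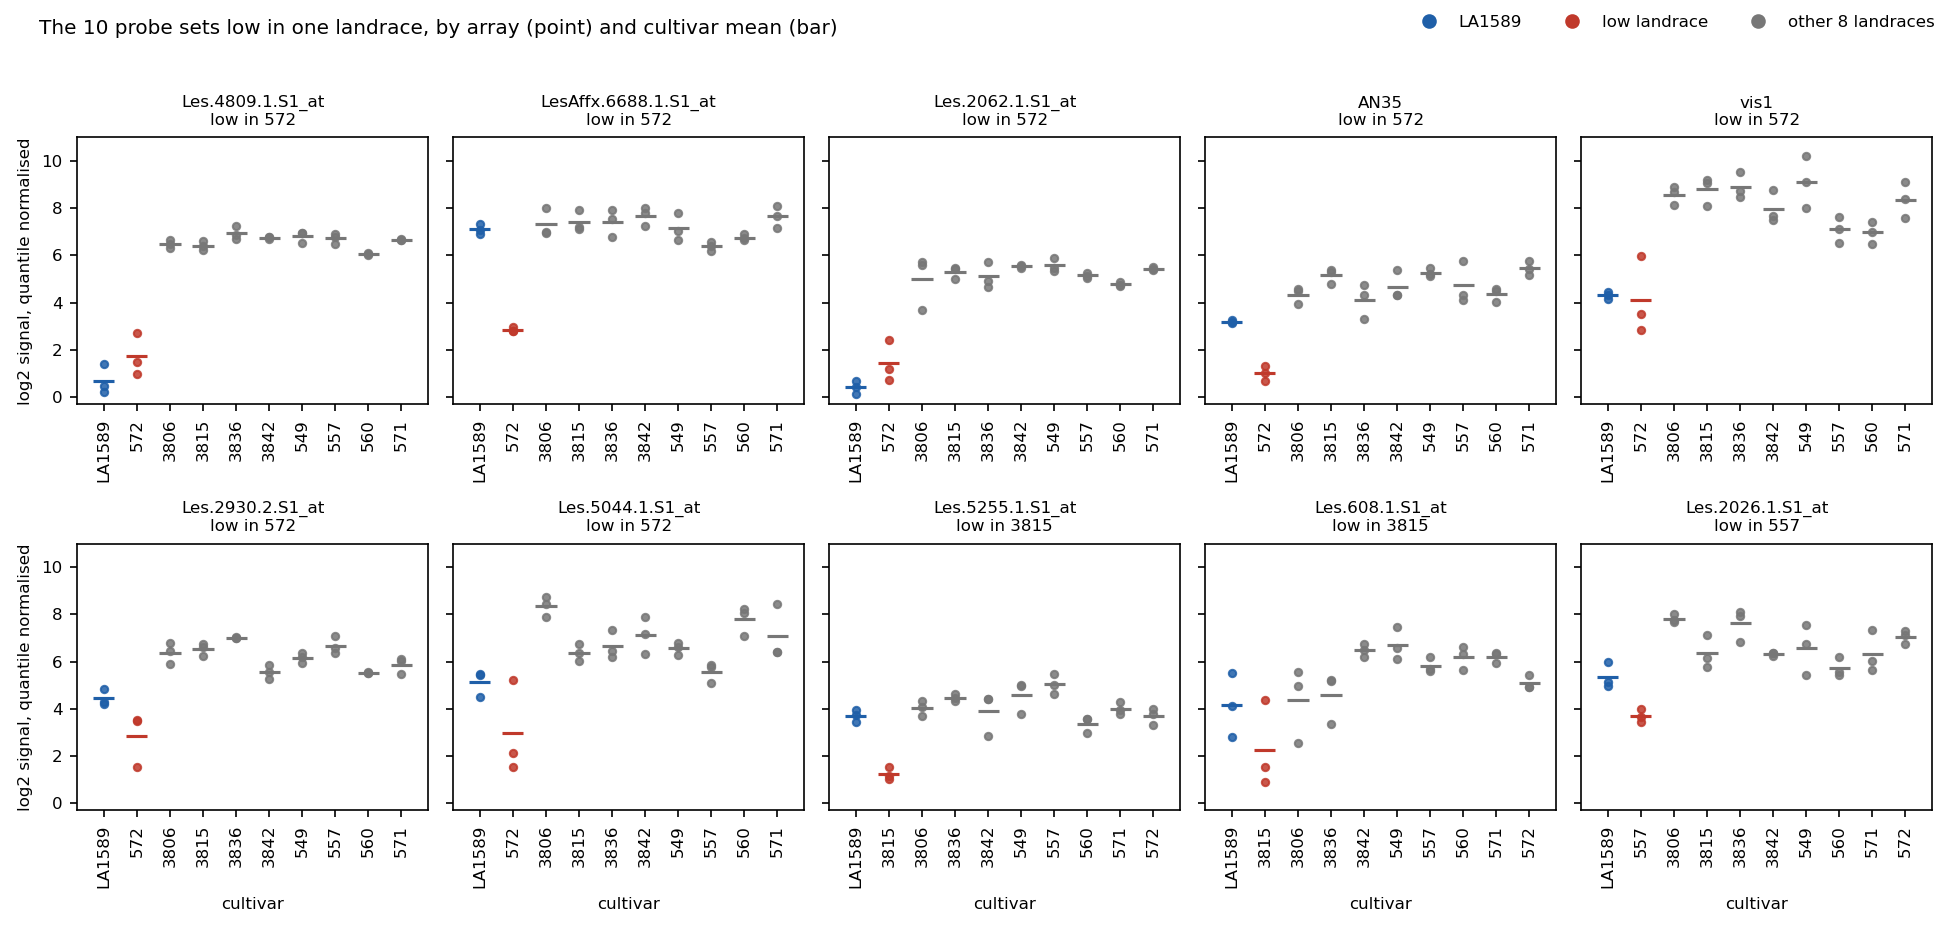
Log2 signal of the 10 probe sets (vertical axis, quantile normalised) in LA1589 (blue), the low landrace (red) and the other 8 landraces (grey). Points are arrays and bars are cultivar means of 3 arrays. In Les.4809.1.S1_at and Les.2062.1.S1_at the LA1589 arrays lie at the bottom with those of 572, while in LesAffx.6688.1.S1_at they lie with the other 8 landraces.

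The wild accession offers a measure that the choice of members did not use. LA1589 was compared with the mean of the 8 landraces other than the low one, in limma on all 30 arrays with Benjamini-Hochberg adjustment over 10038 probe sets. The levels of these 8 did enter the choice. The lowest of them had to be at least 3 and also at least 2 above the low landrace. The members were thus picked for high levels in the group that LA1589 is compared with. Of the 7 members low in 572, 6 were lower in LA1589 than in the other 8 landraces, 0 were higher and 1 did not pass. Over all probe sets 7.55% were called lower and 8.99% higher in this comparison, and among those with all 8 landrace means at least 3, 14.2% were lower. The 14.2% is matched for that level and not for the gap, so it is not a like reference for the 6 of 7. At an unadjusted p under 0.05 in limma, 0 of the 10 members were higher. The share of all probe sets at that threshold was not counted, so nothing is read from this. The median difference over the 7 members was -1.81, against 0.00 over all probe sets tested. The latter also covers many probe sets that are dim in these landraces and leave little room for a fall, so the medians are not a like pair.

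Les.4809.1.S1_at fell by 5.91 ± 0.23 on the log2 scale in LA1589 (SE, 3 against 24 arrays; limma adjusted p = 1.95e-15). With 2 of its 3 LA1589 arrays at background it was at least 42.4-fold lower. Les.2062.1.S1_at fell by 4.81 ± 0.30 (adjusted p = 2.33e-11) and was at least 19.5-fold lower. These were the widest differences of the 10.

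The gene vis1 fell by 3.92 ± 0.45 in LA1589 (limma adjusted p = 1.03e-06), with a mean of 4.31 ± 0.15 in LA1589, 4.11 ± 1.66 in 572 and 8.23 over the other 8 landraces (SD, n = 3 arrays for each cultivar). AN35 fell by 1.58 ± 0.28 (adjusted p = 0.00025), with 3.19 ± 0.07 in LA1589, 1.0 ± 0.31 in 572 and 4.77 over the other 8. The LA1589 mean lay 0.20 above that of 572 for vis1, less than the spread of the 572 arrays, and 2.19 above it for AN35. These differences from 572 were not tested.

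Ripening markers also differed in these cultivars. E8, an ethylene-responsive ripening gene, had a mean of 5.68 ± 0.63 in LA1589 and 8.56 ± 0.28 in 572, against 6.32 to 9.04 in the other 8 landraces. EXP1, a cell wall expansin gene, was at 6.98 ± 0.70 in LA1589 and 7.24 ± 0.10 in 572, against 7.21 to 9.30. TDR4, a ripening transcription factor gene, was at 7.01 ± 0.55 in LA1589 and 7.87 ± 0.29 in 572, against 7.32 to 8.12 in the other 8. LA1589 thus had the lowest cultivar mean for these 3 genes. The ripening regulator gene RIN was at 8.24 ± 0.05 in LA1589 and 7.11 ± 0.30 in 572, against 7.32 to 7.84 in the other 8, and TBG4 was at 1.81 ± 0.51 in LA1589 and 0.75 ± 0.86 in 572, against 0.78 to 2.85. For both of these 572 had the lowest mean (SD, n = 3 arrays each). PG2 and PGcat were lowest in 3815 and 560. The part of these markers in the vis1 result was not tested.

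Les.2930.2.S1_at fell by 1.78 ± 0.27 (limma adjusted p = 3.92e-05) and Les.5044.1.S1_at by 1.81 ± 0.49 (adjusted p = 0.0118). The second of these lost the threshold without replicate 2 of LA1589 (adjusted p = 0.0910). LesAffx.6688.1.S1_at differed by -0.10 ± 0.24 and did not pass (adjusted p = 0.837).

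Of the 2 members low in 3815, 0 passed in either direction in limma, where 7.21% of all probe sets were called lower. At an unadjusted p under 0.05, 1 of the 2 was lower. The share of all probe sets at that unadjusted threshold was not counted. Les.5255.1.S1_at differed by -0.42 ± 0.26 (limma adjusted p = 0.318) and Les.608.1.S1_at by -1.54 ± 0.57 (adjusted p = 0.0664). The second passed when replicate 1 of LA1589 was left out (difference -2.21, adjusted p = 0.0306), and likewise without replicate 2 of 3806 (adjusted p = 0.0274), replicate 1 of 3815 (0.0271) or replicate 3 of 3836 (0.0460). Without replicate 2 of LA1589 its difference was -0.86. The member low in 557, Les.2026.1.S1_at, fell by 1.37 ± 0.34 (adjusted p = 0.00665), where 7.53% of all probe sets were called lower. It lost the threshold without replicate 1 or replicate 3 of LA1589 (adjusted p = 0.0600 and 0.0653).

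**Figure D3:**
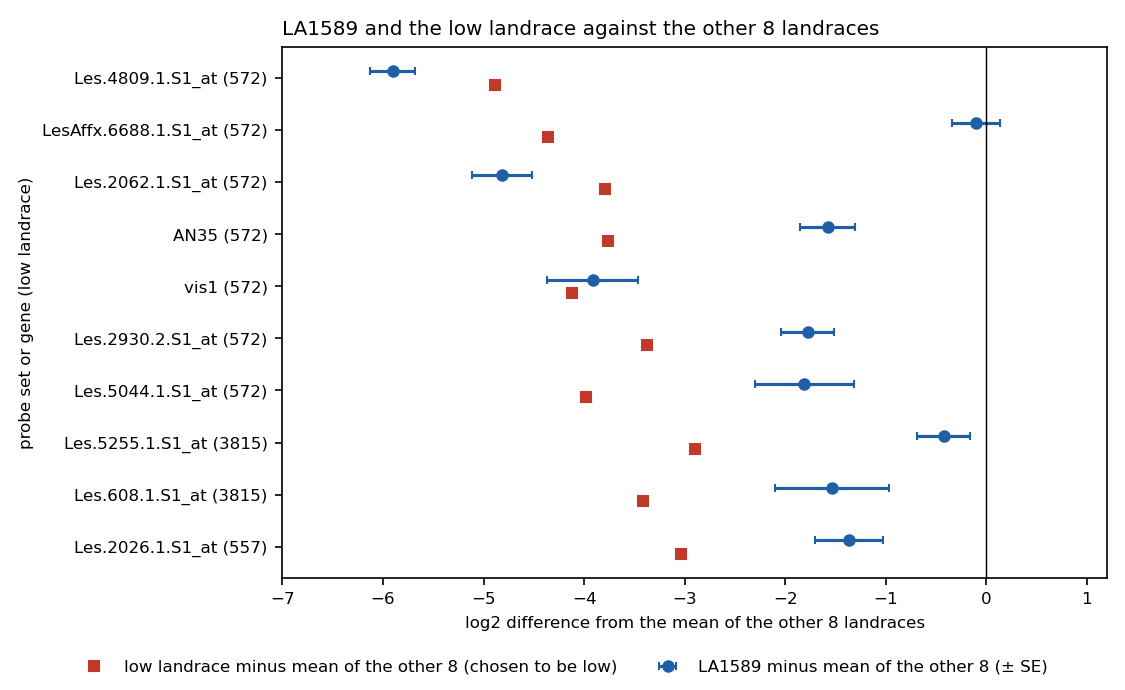
Difference from the mean of the other 8 landraces (horizontal axis, log2) for LA1589 (blue, with SE from limma) and for the low landrace (red, a consequence of how the members were chosen) in each of the 10 probe sets. All 10 blue points lie below 0, from -5.91 for Les.4809.1.S1_at to -0.10 for LesAffx.6688.1.S1_at. The members were picked for high levels in the same 8 landraces, which favours points below 0. The share of all probe sets below 0 was not counted, so nothing is read from the 10.

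By level, the LA1589 mean lay below the low landrace in 2 of the 10 members, between the low and the second lowest landrace in 6, within the means of the other 8 in 2, and above all landraces in 0. LA1589 lay below the lowest landrace in 367 of the 2906 probe sets, and in 74 (19.7%) of the 375 whose lowest landrace was 572. The 2 members were among the 7 low in 572. These shares cover gaps of any width and are not matched for the wide gaps of the members. They are not a like reference, so nothing is read from the 2 members. Among all 2906 probe sets with a second lowest landrace mean of at least 3, LA1589 lay below the second lowest in 23.6%, and in 35.5% of the 375 whose lowest landrace was 572. A position between the low landrace and the rest needs a gap to lie in, so the wide gaps of the members bear on this count.

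The same view was taken of the 33 probe sets with a gap of at least 1.5, which include the 10. LA1589 lay below the second lowest landrace in 14 of the 15 whose low landrace was 572. It did so in 5 of the 8 low in 3815, in 3 of the 7 low in 557, and in 0 of the 3 low in 560 or 3806. Over all probe sets with the same lowest landrace, a second lowest mean of at least 3 and any gap, this was so in 35.5% for 572. It was so in 33.0% for 3815, 22.3% for 557, 24.8% for 560 and 14.3% for 3806. A wide gap leaves more room below the second lowest landrace, so these shares are not a like reference. LA1589 was at background on at least 2 of its 3 arrays in 3 of these 33, and all 3 had 572 as the lowest landrace: Les.4809.1.S1_at, Les.2062.1.S1_at and LesAffx.52290.1.S1_at, which lay just outside the gap threshold. LesAffx.52290.1.S1_at had a mean of 0.43 in LA1589 and 2.24 in 572, against 4.16 in the second lowest landrace, 3836. LA1589 was at background in this way in 8 of the 2906 probe sets (0.275%). These counts carry no test, since they were looked up with the values in view.

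A second probe set gave a further reading of the same sequence cluster for 2 of the members. In the array's naming, probe sets whose identifiers share the first number were drawn from the same cluster of transcript sequences. Les.2930.1.A1_at, from the cluster of Les.2930.2.S1_at, gave 4.50, 3.45 and 3.92 in 572. LA1589 gave 5.47, 5.04 and 5.31, and all 24 arrays of the other 8 landraces lay above both (lowest 5.58, highest 7.68). In 572, against the other 8 landraces, it fell by 2.52 ± 0.19 on the log2 scale (SE; limma on the 27 landrace arrays, adjusted p = 1.50e-08), or 5.72-fold. Over all probe sets, 6.62% were called lower in 572. In LA1589 it fell by 1.2 ± 0.19 against the other 8 (limma adjusted p = 5.68e-05). The order of LA1589, 572 and the other landraces was thus the same on both probe sets of the cluster.

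Les.2026.2.A1_at, from the cluster of Les.2026.1.S1_at, gave 4.70, 3.48 and 2.41 in 557. LA1589 gave 4.46, 4.26 and 4.43. The values in 557 overlapped those of the other 24 landrace arrays (lowest 3.81, highest 6.41). In 557, against the other 8 landraces, it fell by 1.61 ± 0.37 on the log2 scale (limma adjusted p = 0.0040), where 11.1% of all probe sets were called lower. Without replicate 3 of 557 the difference was -1.05 and the adjusted p was 0.0601. Its difference of -0.76 between LA1589 and the other 8 did not pass (adjusted p = 0.160). These readings come from the same RNA on the same arrays as the members, so they check the probe set and not the plants. For the other 8 members no further probe set was found by cluster number or gene symbol. Most probe sets carry no symbol, so others that read the same transcript could have been missed.

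**Figure D4:**
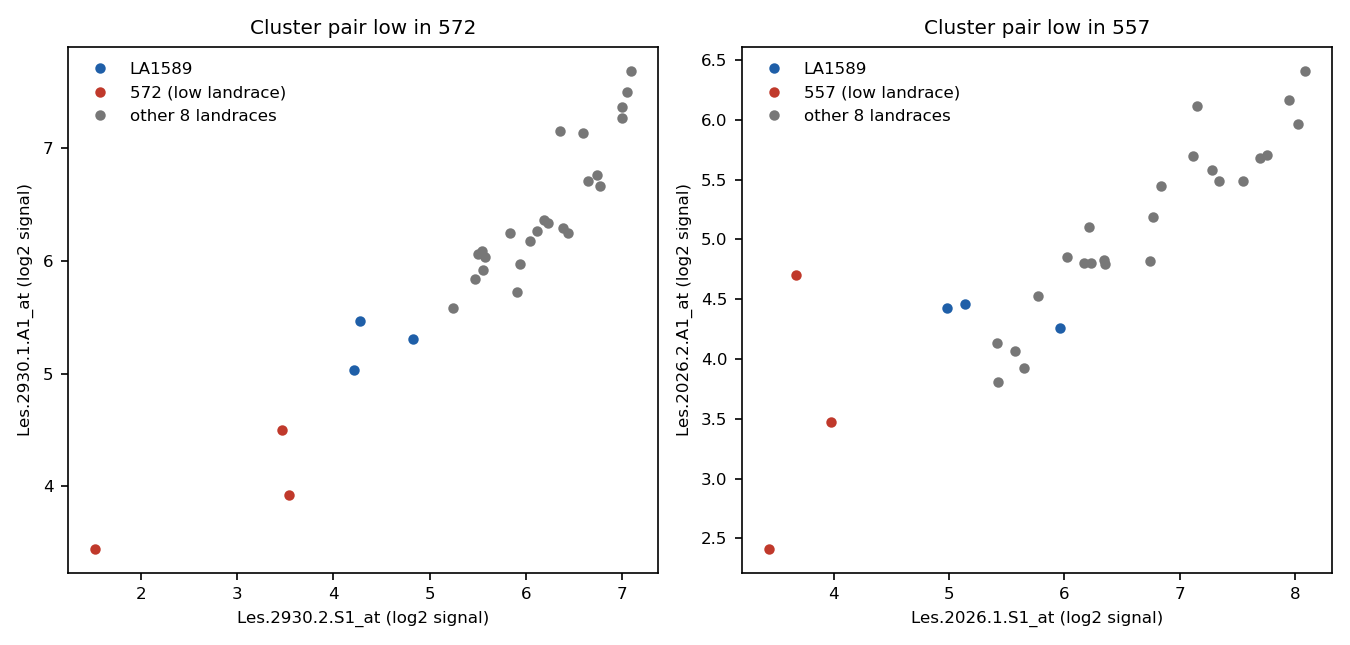
Log2 signals of both probe sets of a sequence cluster, with the member on the horizontal axis and the further probe set on the vertical axis, for LA1589 (blue), the low landrace (red) and the other 8 landraces (grey). Each point is an array. On the left, for the pair low in 572, the 3 groups follow each other along 1 line, with 572 lowest. On the right, 1 array of 557 is low on the member and not on the further probe set.

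The other small heat shock genes were set beside vis1. Of the 3 other measured genes of the heat shock list, 0 were lower, 0 were higher and 3 did not pass in 572 against the other 8 landraces, where 6.62% of all probe sets were called lower and 7.34% higher. With shares this low, 0 of 3 is no contrast to vis1. The list had a median difference of -0.02 against 0.00 over all probe sets. At an unadjusted p under 0.05, 0 of the 3 passed in limma either, and the sign of each difference turned when 1 array of 572 was left out. HSP17.4, a cytosolic small heat shock protein gene, gave 6.81, 7.30 and 8.46 in 572, against a mean of 7.47 in the other 8 (difference 0.05, adjusted p = 0.968). HSP21, of the plastid, gave 6.45, 7.70 and 7.95 in 572, against 7.52 (difference -0.16, adjusted p = 0.909). MTSHP, of the mitochondrion, gave 6.34, 6.59 and 7.47 in 572, against 6.82 (difference -0.02, adjusted p = 0.992).

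These genes had other low landraces. HSP17.4 was lowest in 557 (4.74 ± 0.81) and in 560 (5.28 ± 1.03), and MTSHP in 560 (3.77 ± 0.73) and 557 (4.11 ± 0.37; SD, n = 3 arrays each). In 557 and 560 vis1 was the lowest after 572, with 7.11 and 6.97. In LA1589, vis1 passed and the other 3 genes did not against the same 8 landraces (HSP21 0.00, HSP17.4 -0.29 and MTSHP -0.81, adjusted p = 0.999, 0.769 and 0.359). Whether the difference of vis1 was larger than that of the other genes was not tested. Another 4 genes with a heat shock name were chosen after their values were seen. Their differences in 572 were 0.44 for HSC80, 0.70 for Hsp90-1, 0.96 for ER-SHSP and -0.36 for HSP17-6. In limma 0 of them passed (adjusted p from 0.116 to 0.546), while HSC80 and Hsp90-1 were higher at an unadjusted p under 0.05. The share of all probe sets at that unadjusted threshold in 572 was not counted. Nothing is therefore read from the unadjusted counts, here or for the other 3 list genes.

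**Figure D5:**
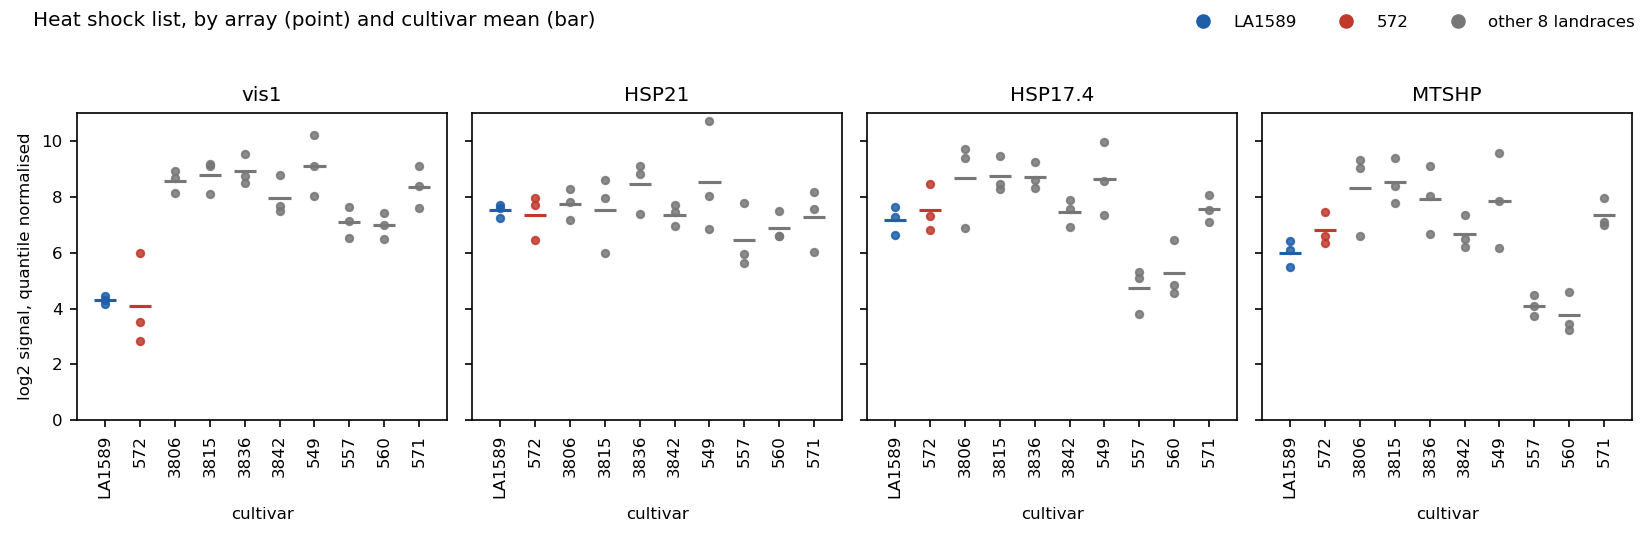
Log2 signal (vertical axis, quantile normalised) of the 4 heat shock list genes in LA1589 (blue), 572 (red) and the other 8 landraces (grey). Points are arrays and bars are cultivar means of 3 arrays. In vis1, LA1589 and 572 lie below the rest, while in HSP17.4 and MTSHP the low landraces are 557 and 560.

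The genes nearest to the named members on the chromosome, chosen after the members' values were seen, were looked at too. For AN35 the nearest annotated genes with a probe set were ER66 at a distance of 192 kb (start to start) and CDKC at 234 kb. Their differences in 572 were -0.08 and 0.26 (limma adjusted p = 0.860 and 0.214), and neither passed. For vis1 the nearest was a gene at 2798 kb (LOC543938), which was higher in 572 by 0.81 (adjusted p = 0.00208), followed by RIN at 2862 kb (-0.47, adjusted p = 0.0984). Only 9.02% of the probe sets are named, so genes between these and the members were not placed here.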

How the data were processed

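Ripe fruit pericarp of 10 cultivars was measured on 30 one-colour arrays with biotin-labelled cRNA, per the labels' protocols. The deposited values are log2 signals per probe set, and the authors had normalised them. Their method is not given in the sources used here. Base 2 of the logarithm was assumed, since the labels do not state it. Medians of single arrays lay between 1.28 and 1.79 before scaling, and all 10209 probe sets were quantile normalised over the 30 arrays (limma 3.58.1, R 4.3.3). The 171 control probe sets were left out, and 10038 were tested. The choice of members was made among 10034, because 4 probe sets are not reported here. Background was the percentile 95 of the 63 reporter probe sets of each array. An "at least" fold was computed with arrays at background raised to it, where most arrays of the low side were at it.

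Tests were limma fits of cultivar means with moderated variances and two-sided p-values, adjusted (Benjamini-Hochberg) over all tested probe sets with a threshold of 0.05. LA1589 was fitted with all 30 arrays (20 residual degrees of freedom), and single landraces with the 27 landrace arrays (18). The procedure was tested on simulated data. Precision is limited by having 3 arrays per cultivar, since arrays give no counts. Of the 10034 probe sets 905 carry a gene symbol, 881 of them matched to the reference gene table, and 9129 carry none.

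The members and the gene lists were chosen with earlier results of these data known. Named were members with a gene symbol, the 3 with the widest gap per low landrace, the probe sets nearest the gap threshold, further probe sets of a member's gene or cluster, and the one list with a member, heat shock, whose 4 measured genes were matched on symbol and synonym. Les.2930.2.S1_at and Les.5044.1.S1_at, outside this rule, were added after their values were seen so that all 10 members are described. Same-numbered replicates did not deviate together (correlations from -0.28 to 0.36 over 45 pairs of cultivars for each number), so the main fit has no block. Figures were drawn with matplotlib 3.10.9 in Python 3.11.15.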

Additional observations from a re-analysis of the deposited data

How the results depend on the processing

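The count of 10 probe sets was 12 on the deposited values, 11 with median centring and 9 with a second lowest mean of at least 4. It was 19 with landrace medians in the rule (9 of the 10 members among them, without Les.2026.1.S1_at), 33 with a gap of at least 1.5 and 4 with a gap of at least 3. With 1 array left out it ran from 9 to 18 (18 without replicate 1 of 3815), and it was 16 without replicate 2 of 572. All 10 members were found again in 22 of the 30 such runs. Les.608.1.S1_at was lost in 5, Les.2026.1.S1_at in 2 and Les.5044.1.S1_at in 1. The count of members lower in LA1589, 7 of 10, was 20 of 33 with a gap of at least 1.5, 3 of 4 with a gap of at least 3, 8 with array weights, 9 of 12 on the deposited values, 10 of 19 with medians, and from 6 to 13 with 1 array left out (13 of 18 without replicate 1 of 3815). Higher were 0, but 1 with medians in the rule, and from 0 to 1 with 1 array left out (1 without replicate 2 of 572). The count of further cluster probe sets lower in the same landrace was 2 of 2. It was 1 of 2 on the deposited values, where Les.2930.1.A1_at itself met the rule, and 5 of 8 with a gap of at least 1.5. With a gap of at least 3 it was 0, because none of the 4 members left had a further cluster probe set to count. With 1 array left out it ran from 1 to 4. It was 4 of 4 without replicate 3 of 572, and 1 without replicate 3 of 557, replicate 1 of 560, replicate 1 of 572 or replicate 1 of 3842. These counts follow the members, which were chosen anew for each setting. For fixed members, the call for Les.608.1.S1_at changed with array weights (-1.78, limma adjusted p = 0.0431), and the other 9 members, both further probe sets and the 3 heat shock genes kept theirs on the deposited values, with median centring, without the dimmest probe sets, with an intensity trend and robust prior, with array weights and with the replicate block. With the replicate number as a block the counts were again 7, 0 and 2, and 7 of 30 arrays resembled arrays of their own number most. The LA1589 differences of the 10 members and the differences of both further probe sets stayed below 0 in these settings and with each array left out. Those of the 3 heat shock genes in 572, none of which passed, changed sign: HSP21 reached 0.03 and MTSHP 0.18 in these settings, and with 1 array left out HSP21 ran from -0.45 to 0.30, HSP17.4 from -0.41 to 0.40 and MTSHP from -0.35 to 0.21. Signals near the array background limit what can be said of levels in LA1589 and 572.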
